A study of Mus musculus with 6 samples.

Results

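The junctions described here joined the Sμ switch region in the mouse immunoglobulin heavy chain (IgH) locus to Sε, the switch region in front of the IgE constant gene. Their members were all 656 junctions in the authors' Sε lists of 6 libraries, in both orientations. They were 656 of 4214 listed IgH junctions and of 5608 junctions that the authors counted in all. High-throughput genome-wide translocation sequencing (HTGTS) amplified genomic DNA from a primer in Sμ, the bait, and sequenced whatever DNA, the prey, had been joined to it.

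Splenic B cells lacking CD43 were activated with IL-4 at 20 ng/mL and an antibody to CD40 at 1 ng/mL, and DNA was taken after 4 days. The 3 genotypes were wild type, labelled as the ATM control, an ATM knockout (ATM KO, genotype ATM-/-), and ATM RX/RX, whose allele the design text names as R3057X. Each genotype had 2 libraries. All mice were of the 129 strain and, by the design text, carried an already assembled IgH locus on that background. The labels tie no library to a separate animal, so p-values of genotype comparisons can at most measure the spread between libraries, which may be partly technical. Fisher's exact tests between single libraries take junctions as units and measure no spread between libraries. Only genomic DNA was read, and the labelled cell type was not checked against marker genes here.

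Class switch recombination exchanges the constant region of an antibody while keeping its variable region. The enzyme AID deaminates cytosines in switch regions, which are long repeats rich in the motif AGCT, and the resulting breaks in Sμ and in a downstream switch region are joined with loss of the DNA between them. IL-4 with CD40 signalling directs B cells to IgG1 (through Sγ1) and IgE (through Sε), and IgE can also be reached through an IgG1 intermediate. ATM is a kinase that is activated by double-strand breaks and helps to hold and repair their ends. Classical end joining gives blunt joints or joints with a short overlap, whereas joining in its absence relies more on microhomology, bases that both ends share.

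The bait is shown first because the base at which it ends is 1 of the 2 sides of every junction. It is given from the first base of the nested primer, 5′ to 3′ along the sense (minus) strand, as chr12:114669144-114669257 of the authors' modified mm9 build. The sequence is the consensus of the deposited reads, as is that of Sε. The capitals mark the AflII site at bases 104 to 109, at which unrearranged product was cut.

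Bait: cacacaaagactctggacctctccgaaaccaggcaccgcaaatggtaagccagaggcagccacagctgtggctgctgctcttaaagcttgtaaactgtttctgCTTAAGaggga

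The 300 bases of Sε that held the most junctions are shown for comparison, read on the same strand as chr12:114514281-114514580. Capitals mark its 12 AGCT motifs. The window was chosen for its count, so its counts are a description. It held 105 of the 656 junctions (16.0%). It held 54 of 320 and 19 of 111 for wild type, 4 of 17 and 21 of 128 for ATM KO, and 0 of 35 (which allows up to 8.57%, as 3 counts) and 7 of 45 for ATM RX/RX.

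Sε: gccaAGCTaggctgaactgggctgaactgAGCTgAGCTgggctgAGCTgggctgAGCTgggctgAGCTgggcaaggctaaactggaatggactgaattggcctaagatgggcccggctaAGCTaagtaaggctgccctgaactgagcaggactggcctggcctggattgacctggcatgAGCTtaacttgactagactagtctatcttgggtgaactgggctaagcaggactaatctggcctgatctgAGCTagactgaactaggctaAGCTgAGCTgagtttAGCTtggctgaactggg

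The structure of a joint was taken from how the 2 alignments meet on the read. Bases that belong to neither are an insertion, alignments that abut make a blunt joint, and bases that belong to both are an overlap, that is microhomology of that length. The following joins show each form, with 15 bases on either side and the overlapping or inserted bases in capitals. For each form and genotype they were the middle ones by position in the larger library, so they were not picked for their sequence.

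Wild type, blunt: ctctccgaaaccagggctaaactggctctc
Wild type, overlap of 3 bp: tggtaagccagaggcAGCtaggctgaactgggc
Wild type, insertion of 1 bp: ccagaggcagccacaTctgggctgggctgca
ATM KO, blunt: gcagccacagctgtgaagtaaggctgccct
ATM KO, overlap of 3 bp: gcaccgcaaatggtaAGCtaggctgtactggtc
ATM RX/RX, overlap of 3 bp: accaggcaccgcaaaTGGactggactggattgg
ATM RX/RX, insertion of 1 bp: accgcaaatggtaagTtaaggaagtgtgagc

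Both overlaps of 3 bp from wild type and ATM KO are AGC, the first bases of the AGCT motif. The one from ATM RX/RX is TGG and was listed in both ATM RX/RX libraries.

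Junctions to Sε were a smaller share of both mutants' libraries. Wild type listed 320 and 111, ATM KO 17 and 128, and ATM RX/RX 35 and 45. As a share of all junctions of a library they were 35.4% and 21.9% for wild type, 4.11% and 6.92% for ATM KO, and 2.84% and 6.42% for ATM RX/RX. Both wild-type libraries lay above all 4 mutant libraries, and the 2 mutants overlapped. Total junctions ran from 414 to 1849 per library, and ATM KO replicate 1 was the smallest. In ATM RX/RX replicate 2, 2 further lines of the list were empty and were not analysed here.

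Junctions in the minus orientation, which includes the deletional joins that lead to IgE, fell in both mutants. Minus-orientation Sε junctions numbered 301 and 109 for wild type, 17 and 113 for ATM KO, and 25 and 42 for ATM RX/RX. They fell 7.22-fold in ATM RX/RX (log2 -2.85 ± 0.57 SE, edgeR adjusted p = 0.0236) and 5.15-fold in ATM KO (log2 -2.37 ± 0.55 SE, edgeR adjusted p = 0.0293) relative to all junctions of a library. Among the 10 region and orientation classes tested, 20% were called for ATM RX/RX (10% lower, 10% higher) and 30% for ATM KO (10% lower, 20% higher). Between the mutants it was 0%. Between the mutants the log2 difference was -0.49 ± 0.59 (SE, edgeR adjusted p = 0.702). The call in ATM RX/RX was lost without ATM RX/RX replicate 1 (log2 -2.20, edgeR adjusted p = 0.0702) or wild-type replicate 1 (log2 -2.50, edgeR adjusted p = 0.104). The call in ATM KO was lost without any 1 of its own or the wild-type libraries (edgeR adjusted p from 0.0548 to 0.121).

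Plus-orientation Sε junctions, which are inversions or joins between chromosomes, were not called in either mutant. They numbered 19 and 2 for wild type, 0 and 15 for ATM KO, and 10 and 3 for ATM RX/RX. Relative to all junctions their log2 difference from wild type was -1.08 ± 0.97 (SE, edgeR adjusted p = 0.393) in ATM RX/RX and -1.18 ± 0.96 (SE, edgeR adjusted p = 0.309) in ATM KO. Within Sε their share was 5.94% and 1.80% for wild type, 0% and 11.7% for ATM KO, and 28.6% and 6.67% for ATM RX/RX. The high value of 28.6% came from 1 library, with a 95% Clopper-Pearson interval of 14.6% to 46.3%. The 0 of 17 in ATM KO replicate 1 allows a share of up to 17.6% by a limit of 3 counts, or 19.5% by the Clopper-Pearson interval. These intervals and limits cover counting error only and treat junctions as independent. The reads were amplified by PCR and not tagged by molecule. Listed junctions may therefore not all be independent, and the intervals may be too narrow.

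With Fisher's exact test between single libraries, adjusted over 75 tests on 5 features of Sε, ATM RX/RX replicate 1 had a higher plus share than both wild-type libraries (adjusted p = 0.00419 and 0.000712). ATM KO replicate 2 had a higher share than wild-type replicate 2 (adjusted p = 0.0387). No replicate pair passed (adjusted p from 0.0703 to 0.543). Such tests compare libraries, not genotypes, and likewise treat junctions as independent. The exact permutation test of genotype means gave p = 0.33 for ATM RX/RX against wild type, the smallest value that 2 against 2 libraries allow.

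Along Sε, junctions of all 3 genotypes gathered in the same AGCT-rich core. Positions are given as the distance downstream from the upstream edge of the authors' Sε window, which spans chr12:114507001-114517000. The medians were 2605 and 2510 bp for wild type, 2563 and 2754 bp for ATM KO, and 2205 and 2911 bp for ATM RX/RX. The medians of ATM RX/RX lay on either side of all the others. The means were 2633 and 2554 bp for wild type, 2931 and 2925 bp for ATM KO, and 2689 and 3042 bp for ATM RX/RX. The mean of each mutant was higher, by 334 bp in ATM KO and 272 bp in ATM RX/RX, with no overlap with wild type and an exact permutation p of 0.33 for each. The 3 fullest bins of 500 bp were chr12:114514001-114514500 with 159 junctions, chr12:114514501-114515000 with 140, and chr12:114513501-114514000 with 121. The first of them held 25.3% and 25.2% of Sε junctions for wild type, 17.6% and 27.3% for ATM KO, and 8.57% and 20.0% for ATM RX/RX. There both ATM RX/RX libraries were lower than both wild-type libraries, but the bin was not called (log2 -0.75 ± 0.47 SE, edgeR adjusted p = 0.381).

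None of the 8 Sε bins tested was called in any comparison with edgeR. Over the 46 bins of Sμ, Sγ1 and Sε fitted together, 6.52% were called for ATM RX/RX against wild type (4.35% higher, 2.17% lower), 0% for ATM KO and 0% between the mutants. An unadjusted p under 0.05 was found for 3 Sε bins of ATM KO, for 0 of ATM RX/RX and for 0 between the mutants. DESeq2 also called 0 Sε bins in each comparison.

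**Figure D1:**
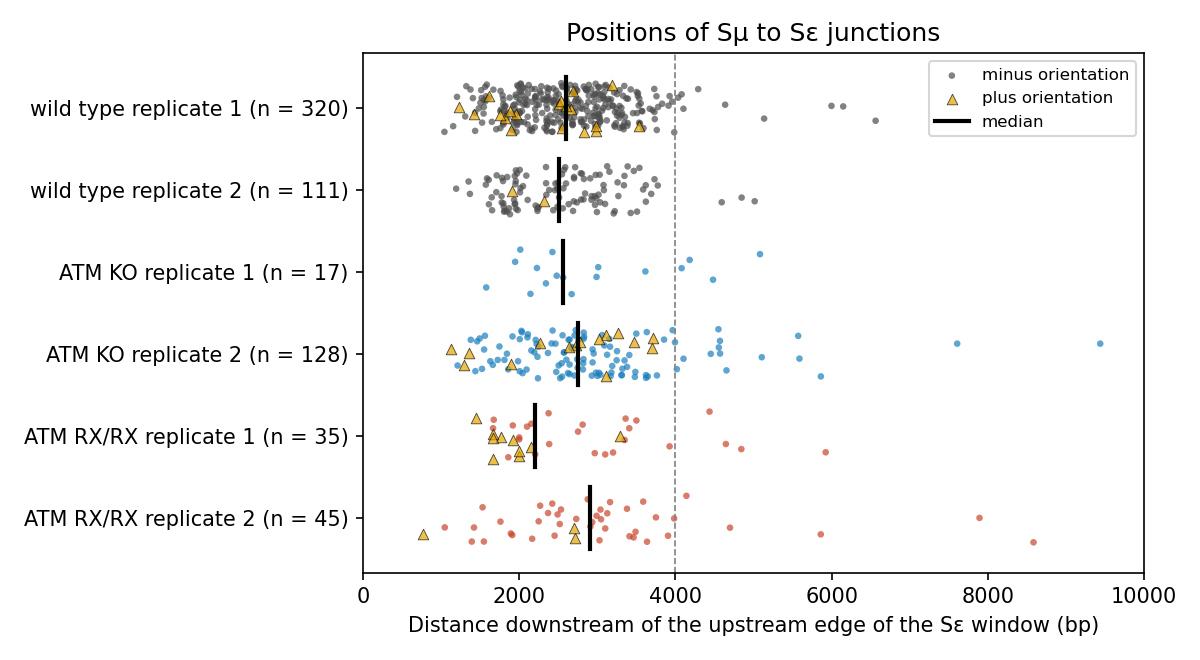
Each point is 1 Sε junction, plotted by its distance in bp from the upstream edge of the Sε window, in a row per library with vertical scatter added for legibility. Circles are minus-orientation and triangles plus-orientation junctions, bars are medians (2205 to 2911 bp), and the dashed line stands at 4000 bp, beyond which lie 12 of 431 wild-type, 18 of 145 ATM KO and 9 of 80 ATM RX/RX junctions.

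Bins dense in AGCT were also dense in junctions. The reads themselves covered 3755 bases of Sε without a break, chr12:114512640-114516394, and their consensus held 94 AGCT motifs. Its best match in the C57BL/6 mm9 genome was chr12:114512167-114515511 on the minus strand at 99.4% identity, outside annotated genes and 710 bp upstream of the IgE constant gene Ighe. The 4 bins between 1500 and 3500 bp held 3.8 to 4.2 AGCT per 100 bp and 23.4 to 31.8 junctions per 100 bp over all libraries. The bin upstream of them held 0.800 AGCT and 5.4 junctions per 100 bp, and the bin from 4000 to 4500 bp held 0.554 and 2.4. As 8 bins of 1 region, with junctions summed over all libraries, these values are a description.

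**Figure D2:**
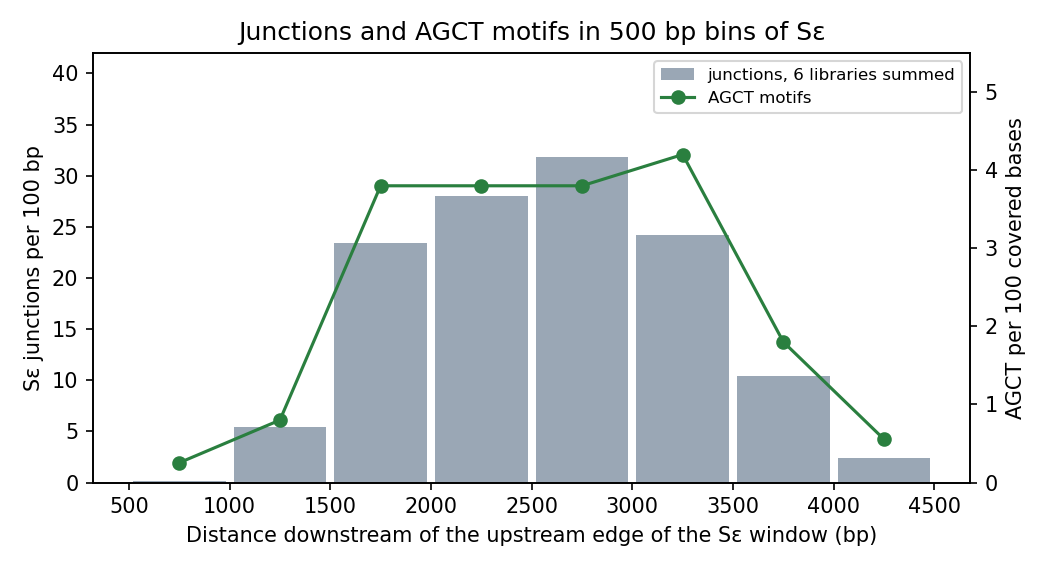
Bars give Sε junctions per 100 bp in bins of 500 bp, summed over 6 libraries, and the line gives AGCT motifs per 100 covered bases (right axis), against distance in bp from the upstream edge of the Sε window. Both are high between 1500 and 3500 bp and low on either side.

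At the scale of single bases, 142 of the 626 junctions within the covered stretch (22.7%) had their Sε end inside or at the edge of an AGCT. Of all positions in that stretch 12.5% meet the same condition, and of those in the 2500 bp from chr12:114513001 to 114515500 it is 17.4%. The motif reads the same on both strands. Pooled within genotype the share was 22.7% for wild type, 24.4% for ATM KO and 19.4% for ATM RX/RX. In wild type it was 26.5% of 185 blunt joints and insertions and 19.7% of 238 overlaps. In ATM KO the order was the other way, at 22.2% of 54 and 26% of 77, and in ATM RX/RX it was 27.8% of 18 and 16.7% of 54. An overlap leaves the break position uncertain by its own length, so the 2 kinds are not measured alike.

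Few coordinates recurred. The 656 junctions used 571 coordinates, of which 493 were listed once, 71 were listed in 2 junctions and 7 in 3. The first 5 of the latter, in order of position from the upstream side, were 114514993, 114514796, 114514651, 114514643 and 114514536 on chromosome 12. The first and the last occurred in 3 libraries each, and the other 3 in 1 library each. At the first, the Sε sequence around the junction reads actgagctagcttttg, and at the last ctgggctgagctgggc, both with an AGCT at the junction. The second also touches an AGCT, and the other 2 do not. At the first, 2 of the 3 junctions had the same bait end and were 1 join listed in 2 libraries; at the others named, all 3 bait ends differed. Their order among the 7 tied coordinates was set after the values were seen.

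Both mutants had a larger share of their Sε junctions far downstream. Junctions more than 4000 bp from the upstream edge were 9 of 320 and 3 of 111 for wild type (2.81% and 2.70%), 4 of 17 and 14 of 128 for ATM KO (23.5% and 10.9%), and 4 of 35 and 5 of 45 for ATM RX/RX (11.4% and 11.1%). All 4 mutant libraries lay above both wild-type libraries. Relative to all junctions of a library this did not hold. There the counts were 9 of 904 and 3 of 507 for wild type and 4 of 414 and 14 of 1849 for ATM KO. For ATM RX/RX they were 4 of 1233 and 5 of 701. On that scale no mutant library lay above both wild-type libraries. The limit of 4000 bp was set after the positions were seen, so these shares carry no test. All 39 tail junctions were in the minus orientation, and 26 of them had an overlap. Most other Sε junctions shared both traits: of those 617, only 49 were in the plus orientation and 366 had an overlap. Neither difference was tested.

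The bins of 500 bp cover parts of this tail. The bin chr12:114512501-114513000 held 4 and 0 junctions in wild type and 3 and 3 in ATM KO (log2 2.07 ± 0.94 SE, edgeR adjusted p = 0.189), and 1 and 1 in ATM RX/RX. The next one downstream, chr12:114512001-114512500, held 1 and 2 for wild type, 0 and 5 for ATM KO and 2 and 1 for ATM RX/RX, and was not called either. With bins of 1000 bp the 2 merge into 1 bin, which was called in ATM KO (log2 2.15 ± 0.67 SE, edgeR adjusted p = 0.0324).

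Part of the tail reached the constant gene. Matched to mm9, 11 junctions fell within Ighe, which spans chr12:114509391-114511457 there. They were 7 in its exons and 4 in its introns. Wild-type replicate 1 had 4, all exonic, and wild-type replicate 2 had 0. ATM KO replicate 1 had 1 and replicate 2 had 4, and each ATM RX/RX library had 1. The other 645 junctions lay outside annotated genes. Over the tail the median identity of the prey to mm9 was 99.5%, against 100% elsewhere in Sε, and the prey had a median length of 90 bases, against 97.

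On the bait side, Sε junctions used the stretch between the primer and the AflII site. The bait end is the last bait base kept, counted from the first base of the nested primer. Its lowest value was 31 and its highest 222, and 635 of 656 junctions (96.8%) ended at bases 31 to 100. There were 9 that ended within the AflII site and 4 beyond it. The lowest value was also 31 for Sγ1 and Sμ junctions, of which 96.5% and 95.4% ended at bases 31 to 100. The digest cuts a bait that keeps the whole site. The median bait end was 57 and 58 for wild type, 65 and 62 for ATM KO, and 60 and 55 for ATM RX/RX.

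The mean bait end was 59.2 and 59.7 for wild type, 61.8 and 62.2 for ATM KO, and 60.2 and 60.4 for ATM RX/RX. Neither mutant overlapped wild type, at differences of 2.50 and 0.864 bases, both with an exact permutation p of 0.33. Single libraries had SDs of 16.8 to 25.1 bases, and with medians in place of means the ATM RX/RX difference was 0. None of the 3 Sε bins of 50 bases was called in any comparison, against 0% of the 9 bait bins over Sμ, Sγ1 and Sε. At an unadjusted p under 0.05, 1 bin passed for ATM KO and 0 bins for ATM RX/RX.

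The bin that passed unadjusted was that of the 50 bases from base 101 on, which holds the AflII site. It held 6 and 0 junctions for wild type, 1 and 8 for ATM KO and 1 and 2 for ATM RX/RX. In ATM KO the log2 difference was 2.07 ± 0.73 (SE, edgeR adjusted p = 0.0872). DESeq2 called it (log2 2.16 ± 0.76 SE, adjusted p = 0.0411), as did edgeR without wild-type replicate 1 (adjusted p = 0.0124). Without that library wild type has 0 junctions there.

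**Figure D3:**
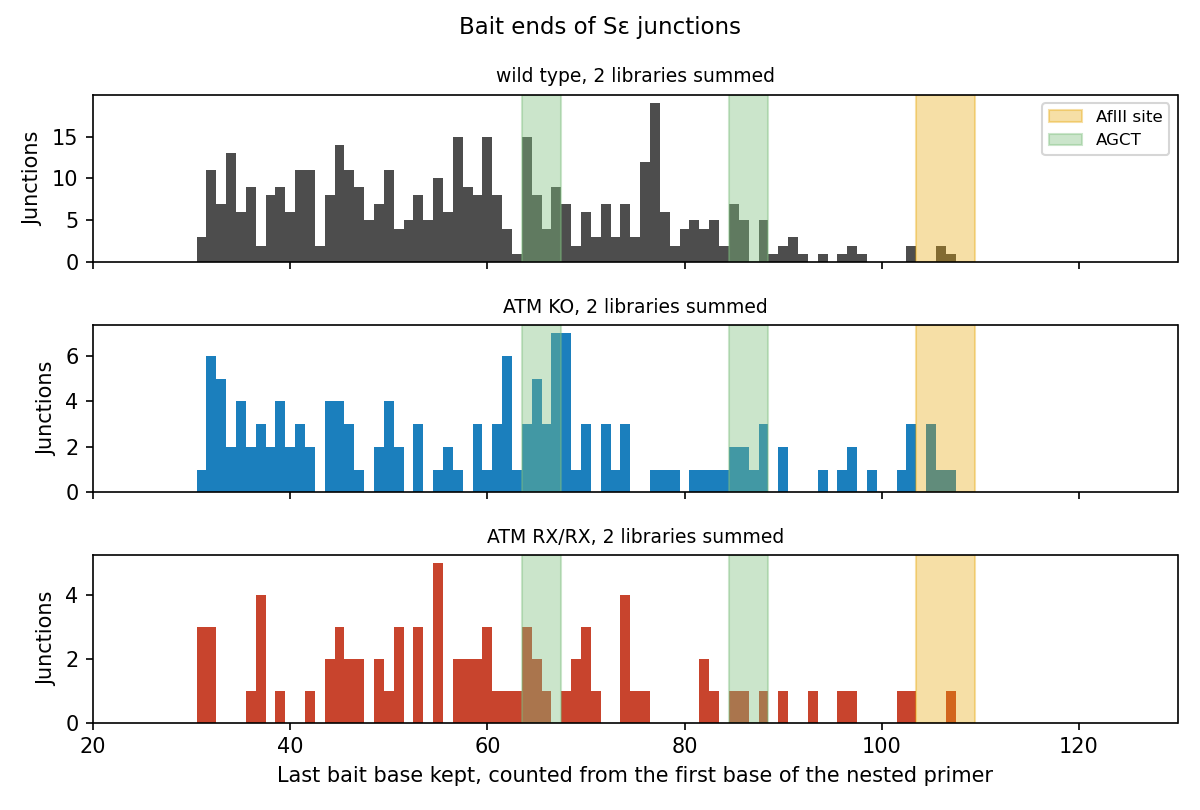
Bars count Sε junctions by the last bait base kept, numbered from the first base of the nested primer, with the 2 libraries of each genotype summed on vertical scales that differ, and with the few ends beyond base 130 not drawn. Shaded bands mark the 2 AGCT motifs and the AflII site of the bait, and ends lie between base 31 and the AflII site with no single dominant base.

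The most used bait ends were bases 45 and 64 with 21 junctions each, 32 and 77 with 20 each, 60 with 19 and 57 with 18. Base 64 is the first base of an AGCT (bases 64 to 67). Inside or at the edge of that motif ended 63 junctions (9.60%), and 31 (4.73%) at the AGCT of bases 85 to 88. These shares were not set against the share of bait bases that the motifs cover. Whether either motif held more ends than other bait bases was not tested. Such ends were not particular to Sε. Bases 63 to 67 in turn ended 16, 21, 33, 24 and 29 of 1078 Sγ1 junctions. For Sμ the counts were 33, 39, 38, 51 and 93 of 2268. Base 77, singled out after its values were seen and so not tested, ended 13 and 6 junctions for wild type, 0 and 1 for ATM KO and 0 in both ATM RX/RX libraries. The same base was used by 7 of 1078 Sγ1 and 18 of 2268 Sμ junctions.

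Blunt joints were rare in ATM RX/RX. Blunt joints were 80 of 320 and 29 of 111 for wild type (25% and 26.1%), 3 of 17 and 26 of 128 for ATM KO (17.6% and 20.3%), and 2 of 35 and 1 of 45 for ATM RX/RX (5.71% and 2.22%). In most Sε measures taken per library, neither mutant overlapped wild type. For blunt joints the 3 genotypes did not overlap either (exact permutation p = 0.33 for each pair). Against wild type they fell 6.57-fold in ATM RX/RX (log2 -2.72 ± 0.62 SE, edgeR adjusted p = 0.000354), a call that held without each library in turn (edgeR adjusted p at most 0.0365) but not with DESeq2 (adjusted p = 0.117). In ATM KO the log2 difference was -0.34 ± 0.30 (SE, edgeR adjusted p = 0.340). The common dispersion that edgeR fitted to the structure classes was 1.16e-07. This dispersion added almost no spread between libraries to counting error.

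Over the 24 structure classes of Sμ, Sγ1 and Sε, 37.5% were called for ATM RX/RX (20.8% higher, 16.7% lower) against wild type, 29.2% for ATM KO and 4.17% between the mutants. Of the 8 Sε classes 3 were called in ATM RX/RX, 0 in ATM KO and 1 between the mutants. The 0 in ATM KO stands beside 3 classes with an unadjusted p under 0.05 in edgeR, and DESeq2 called 0 too. The 1 between the mutants was blunt joints, 5.21-fold lower in ATM RX/RX than in ATM KO (log2 -2.38 ± 0.71 SE, edgeR adjusted p = 0.0329). It was lost without any 1 of the 6 libraries, with the lowest adjusted p at 0.0548 and the highest at 0.946, and with DESeq2 (adjusted p = 0.492).

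The 3 blunt joints of ATM RX/RX are printed because they are all there were.

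ATM RX/RX replicate 1, minus: ggcagccacagctgttgagatgggctggtc
ATM RX/RX replicate 1, plus: gcagccacatctgtgtaggcctgcttaggc
ATM RX/RX replicate 2, minus: cagaggcagccacagtcattgttcgaccct

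Their bait ends were bases 69, 70 and 65. The third lay 5860 bp from the upstream edge, within Ighe, so 2 lay in the Sε core. By Fisher's exact test ATM RX/RX replicate 2 had a lower blunt share than both wild-type libraries (adjusted p = 0.00419 and 0.00434) and than ATM KO replicate 2 (adjusted p = 0.0349). For ATM RX/RX replicate 1 no pair with another genotype passed (adjusted p = 0.0663 and 0.0670 against wild type). No replicate pair passed (adjusted p at least 0.897).

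Overlaps of 3 bp and of 5 bp or more were called higher in ATM RX/RX by edgeR, and neither call held with DESeq2 (adjusted p = 0.269 and 0.123) or in the minus orientation only (edgeR adjusted p = 0.109 and 0.0524). Overlaps of 5 bp or more were 5 of 320 and 4 of 111 for wild type, 1 of 17 and 6 of 128 for ATM KO, and 3 of 35 and 5 of 45 for ATM RX/RX. They rose 4.59-fold in ATM RX/RX (log2 2.20 ± 0.75 SE, edgeR adjusted p = 0.0148). The call was lost without ATM RX/RX replicate 2, with a log2 difference of 1.99 (edgeR adjusted p = 0.103), and without wild-type replicate 1, where the log2 difference was 1.43 (edgeR adjusted p = 0.241). In ATM KO the log2 difference was 1.17 ± 0.74 (SE, edgeR adjusted p = 0.209).

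The 5 of ATM RX/RX replicate 2 are shown with the overlap in capitals.

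114508417: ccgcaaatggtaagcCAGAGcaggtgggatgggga
114513250: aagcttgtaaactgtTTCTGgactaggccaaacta
114514577: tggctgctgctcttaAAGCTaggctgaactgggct
114514631: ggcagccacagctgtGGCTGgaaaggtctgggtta
114515953: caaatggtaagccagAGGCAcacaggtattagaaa

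All 5 are exactly 5 bp long, at 5 different places of bait and Sε, and the third holds an AGCT. Of the 3 in ATM RX/RX replicate 1, 2 were plus-orientation joins at neighbouring coordinates whose overlap held a base that differs from the consensus of bait or Sε. Such imperfect overlaps were 12 of 392 over all libraries and 11 of the 63 of 4 bp or more. The consensus includes the read that is checked. Where no other read covers the place, the Sε side therefore matches itself, and these counts may be too low. Without them, an alternative chosen after the data were seen, the log2 difference of the class of 5 bp or more was 2.62 (edgeR adjusted p = 0.0170), against 1.97 in the minus orientation only and 2.14 with DESeq2, which did not pass.

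Overlaps of 3 bp were 34 of 320 and 10 of 111 for wild type, 0 of 17 and 18 of 128 for ATM KO, and 11 of 35 and 7 of 45 for ATM RX/RX. They rose 2.19-fold in ATM RX/RX (log2 1.13 ± 0.44 SE, edgeR adjusted p = 0.0363). Most of the rise lay in replicate 1, at 31.4% of its junctions against 15.6% in replicate 2, and without replicate 1 the log2 difference was 0.60 (edgeR adjusted p = 0.434). The call was also lost without wild-type replicate 1 (adjusted p = 0.397) or replicate 2 (adjusted p = 0.236). Without the joins shared between libraries, which include the TGG join of both ATM RX/RX libraries, the log2 difference was 0.99 (edgeR adjusted p = 0.0836).

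**Figure D4:**
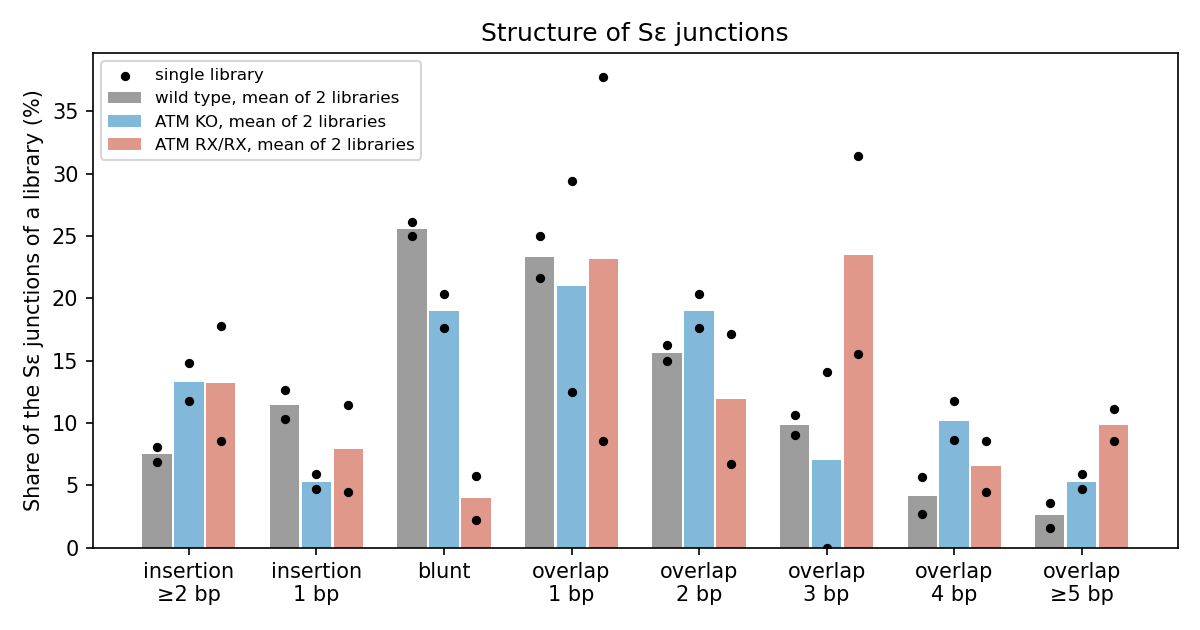
Bars give the mean share of a library's Sε junctions (%) in each structure class for the 3 genotypes, and dots the 2 single libraries behind each mean. Blunt joints stand at 25.6% for wild type, 19.0% for ATM KO and 3.97% for ATM RX/RX, and the ATM RX/RX dots for overlaps of 1 bp lie far apart, at 8.57% and 37.8%.

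The remaining classes were not called, and ATM RX/RX replicates differed widely in some. Overlaps of 1 bp made up 25% and 21.6% for wild type, 29.4% and 12.5% for ATM KO, and 8.57% and 37.8% for ATM RX/RX. Taken from 1 bp on, the overlap share was 57.8% and 53.2% for wild type, 64.7% and 60.2% for ATM KO, and 74.3% and 75.6% for ATM RX/RX. No 2 genotypes had ranges that overlapped (exact permutation p = 0.33 for each pair). For ATM RX/RX less wild type this share differed by 19.4 points in Sε, 9.83 in Sγ1 and 14.6 in Sμ. For ATM KO less wild type the differences were 6.95, 2.96 and 11.6 points. From 2 bp on the overlap share in Sε was 32.8% and 31.5% for wild type, 35.3% and 47.7% for ATM KO, and 65.7% and 37.8% for ATM RX/RX, so that the mutants overlapped. From 1 bp on, 0 of the 4 pairs of an ATM RX/RX with a wild-type library passed Fisher's exact test (adjusted p from 0.0703 to 0.218), and from 2 bp on 2 of 4 did, both with ATM RX/RX replicate 1 (adjusted p = 0.00434 and 0.00764).

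The insertion share of each mutant overlapped that of wild type, and 0 of the 15 library pairs passed Fisher's exact test. Insertions made up 17.2% and 20.7% for wild type, 17.6% and 19.5% for ATM KO, and 20.0% and 22.2% for ATM RX/RX. Both ATM RX/RX libraries lay above both ATM KO libraries (exact permutation p = 0.33). By length, single-base insertions in ATM KO stood at log2 -1.16 ± 0.54 (SE, edgeR adjusted p = 0.0834) and insertions of 2 bp or more at log2 1.00 ± 0.43 (SE, edgeR adjusted p = 0.0679) against wild type. Neither passed. The longest insertions were 24 bp, 1 of wild type and 1 of ATM RX/RX.

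The 16 insertions of 9 bp or more were 4 of 431 junctions for wild type, 9 of 145 for ATM KO and 3 of 80 for ATM RX/RX. All 9 of ATM KO were among the 128 junctions of replicate 2, while the 320 of wild-type replicate 1 held 3. Of the 16, 5 matched the bait or Sε exactly. The insertion of ATM KO replicate 2, TGTGGCTGCCTCTG, is a copy of the bait on the opposite strand.

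ATM KO replicate 2: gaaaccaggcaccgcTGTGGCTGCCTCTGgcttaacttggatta

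That of ATM RX/RX replicate 1, AAATGGTAA, is a copy of bait bases just before the joint, on the same strand.

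ATM RX/RX replicate 1: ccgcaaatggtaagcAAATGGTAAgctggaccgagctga

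The other 3 matched Sε, 2 in wild-type replicate 1 on the same strand and 1 in ATM KO replicate 2 on the opposite strand. How often such matches arise by chance was not tested.

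The bases shared at perfect minus-orientation overlaps were counted by length. At 1 bp, G was shared in 57 of 133 junctions. At 3 bp, AGC was shared in 16 of 71 and CTG in 15, and at 4 bp GCTG in 11 of 33 and AGCT in 5. AGC made up 11 junctions for wild type, 3 for ATM KO and 2 for ATM RX/RX, and CTG 7, 5 and 3.

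Within libraries, Sε junctions were set against Sγ1 and Sμ junctions. The plus share was 9.12% in Sε on average over 6 libraries, against 28.7% in Sγ1 and 35.4% in Sμ, and it was lower in Sε in 6 of 6 libraries for both. The exact sign-flip test gave p = 0.031 for each, the smallest that 6 libraries allow, and 0.125 after adjustment over 12 tests, so neither passed. Mean overlap length was 2.41 bp in Sε and 2.83 bp in Sμ and was shorter in Sε in 6 of 6 libraries, with the same p values. Against Sγ1 it was shorter in 5 of 6 libraries (2.80 bp in Sγ1, exact p = 0.0625, adjusted p = 0.150). Blunt shares were 16.2% in Sε, 16.6% in Sγ1 and 15.5% in Sμ.

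Whether the genotypes differed more in Sε than in Sγ1 was asked with the per-library difference between the regions. For ATM RX/RX less wild type the blunt share differed by -21.6 percentage points in Sε and by -5.64 points in Sγ1, which leaves -16.0 points between the regions (exact permutation p = 0.33). In Sμ it differed by -14.4 points. For ATM KO less wild type the differences were -6.58 points in Sε, -0.65 in Sγ1 and -13.3 in Sμ. None of the 18 such comparisons could reach 0.05 with 2 against 2 libraries, and their lowest p was 0.33.

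Some joins were listed in more than 1 library. The same coordinate, orientation, bait end and gap occurred in 2 libraries for 5 joins, or 10 junctions, and 3 more junctions repeated a join of their own library. Of the 5, 3 were shared by ATM KO replicate 2 and wild-type replicate 1, 1 by ATM KO replicate 2 and wild-type replicate 2, and 1 by both ATM RX/RX libraries. Whether these arose as separate joins was not tested. The share of prey reads with more than 10% mismatches to the Sε consensus was 1.28% in wild-type replicate 1 and 5.13% to 10.1% in the other 5 libraries. Its part in the differences between genotypes was not tested.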

How the data were processed

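Junctions were called by the authors from MiSeq reads. Bowtie2 and mm9 are named in the submitters' processing notes, and per the labels the IgH switch region of mm9 was exchanged for 129 sequence. The junction caller and its filters are not given in the sources used here. Coordinates are those of the modified build and were not converted. The deposited lists hold 1 line per junction, and the deposited tables give the count of junctions in each library, from 414 to 1849. Few junctions per library, 17 to 320 in Sε, limit the precision.

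Joint structure followed from how bait and prey meet within each read, and the bait end from the junction side of the bait alignment. Junction counts were compared with edgeR 4.0.16 (R 4.3.3, quasi-likelihood test, 1 common dispersion per family, Benjamini-Hochberg adjustment, threshold 0.05). The offset was all junctions of the library for region classes and all junctions of the region otherwise. The common dispersion was 0.0489 for region classes, 0.0129 for position bins, 1.57e-08 for bait bins and 1.16e-07 for structure classes. Bins with under 10 junctions over all libraries were left out. Standard errors came from the smaller of the F and Poisson likelihood ratio statistics. The script was tested on simulated data. Per-library means were compared by two-sided exact permutation tests (2 against 2 libraries cannot go below 0.33), and single libraries by Fisher's exact test. Alternatives were DESeq2 1.42.0, each library left out, a replicate block, other offsets, bins and classes, minus orientation only, and joins shared between libraries left out. For the bait bins DESeq2 used feature-wise dispersions, because its dispersion trend could not be fitted. The consensus of the Sε reads was matched to mm9 with blastn 2.17.0.

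Named were the Sε classes and bins called in any comparison, the 3 fullest Sε bins and up to 5 coordinates listed at least 3 times. The members, classes and rules were chosen with earlier results of these data known.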

Additional observations from a re-analysis of the deposited data

Results flagged for a closer look

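The blunt share of Sε junctions fell in ATM RX/RX against wild type, while in ATM KO it was not called, and the difference between the mutants was itself tested. Blunt joints were log2 -2.38 ± 0.71 (SE) lower in ATM RX/RX than in ATM KO (edgeR adjusted p = 0.0329), with 2 of 35 and 1 of 45 junctions against 3 of 17 and 26 of 128. Both ATM RX/RX libraries lay below both ATM KO libraries. The call was kept in 4 of 12 alternatives.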

How the results depend on the processing

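Without each library in turn, the number of Sε features called ran from 0 to 1 for orientation classes of either mutant against wild type (1 with all libraries), from 0 to 1 for bait bins in ATM KO (0), from 1 to 3 for structure classes in ATM RX/RX (3), and was 0 between the mutants (1). Bins of 1000 bp gave 1 position bin in ATM KO, and DESeq2 gave 1 bait bin there. For structure in ATM RX/RX against wild type, 3 classes per region gave 1 call, DESeq2 0 and the minus orientation 1. Between the mutants, DESeq2 gave 0 and the replicate block 0. Same-numbered libraries did not regularly deviate together (correlations from -0.85 to 0.44), so the numbers were not taken as pairs. At -0.85, for wild type and ATM KO over the region classes, differently numbered libraries deviated together. Whether any libraries share a batch was not tested.

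Values near 0 changed sign. Without each library in turn, minus-orientation Sε junctions ran from log2 -1.39 to 0.17 between the mutants, and overlaps of 3 bp from -6.45 to 0.46 in ATM KO. The -6.45 reflects a count of 0. Without ATM KO replicate 2 only ATM KO replicate 1 was left, with 0 of 17 such overlaps. The bin at 114514001 ran from -0.52 to 0.11 in ATM KO (DESeq2 -0.049, 1000 bp bins -0.084, replicate block -0.13). The bin at 114514501 ran from -0.51 to 0.041 in ATM RX/RX, from -0.46 to 0.64 in ATM KO (DESeq2 0.019, replicate block 0.087), and from -0.91 to 0.24 between the mutants (minus orientation 0.050, shared joins left out 0.022). The bin at 114513501 ran from -0.035 to 0.38 in ATM RX/RX, from -1.58 to 0.29 in ATM KO (DESeq2 -0.023, minus orientation -0.068, replicate block -0.014), and from -0.13 to 1.74 between the mutants (shared joins left out -0.063).

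Of the per-library means, again without each library, the plus share in ATM KO against wild type ran from -3.87 to 7.85 points and the insertion share from -2.13 to 1.40 (minus orientation 0.437, mismatched overlaps left out 0.149). Between the mutants, overlap length ran from -0.274 to 0.384 bp and position from -238.7 to 114.1 bp (minus orientation 99.9). The bait end in ATM RX/RX against wild type was 0 with medians. Within libraries, the blunt share of Sε less Sμ ran from -0.926 to 2.48 points and less Sγ1 from -2.47 to 2.19 (minus orientation 0.00131), and the bait end less Sμ was 0.239 in the minus orientation. For Sε less Sγ1, the insertion share in ATM KO against wild type ran from -1.12 to 5.01 (minus orientation -0.295) and the overlap share from -2.15 to 10.1. There the ATM RX/RX plus share ran from -15.1 to 9.19, the bait end from -1.46 to 1.01, and overlap length from -0.510 to 0.194 bp, or -0.470 to 0.129 bp in ATM KO. Between the mutants these were -0.339 to 0.365 bp for length, -0.177 to 11.4 for the overlap share and -5.83 to 18.5 for the plus share. The cause was not tested for any of these.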

Other observations

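Within the plus-orientation Sε junctions of ATM RX/RX replicate 1, 9 of 10 lay between 1445 and 2149 bp from the upstream edge. Their coordinates included 114515001 and 114515002, and 114515335, 114515338 and 114515340, each with its own bait end. Plus-orientation junctions had their median at 2538 bp in wild-type replicate 1 and 2778 bp in ATM KO replicate 2. It was 2113 bp for the 2 of wild-type replicate 2 and 2698 bp for the 3 of ATM RX/RX replicate 2. The grouping was seen in the data and was not tested.

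By bait end, all 3 blunt joints of ATM RX/RX lay past base 60, with 0 among the 45 junctions that ended at bases 31 to 60. In wild type, blunt joints were 22.2% of the 248 junctions that ended at bases 31 to 60 and 29.5% of the 183 that ended further on. In ATM KO the shares were 17.9% of 67 and 21.8% of 78. The split rests on 3 blunt joints in ATM RX/RX and was not tested.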
